A study of Mus musculus with 28 samples.

Results

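The genes described here are 10 members of the transforming growth factor beta (TGF-beta) and activin pathways: the ligand genes Tgfb1, Tgfb2, Tgfb3 and Gdf11, the ligand-binding inhibitor Fst, the receptor genes Tgfbr2, Acvr2a, Acvr2b and Acvr1b, and the signal transducer Smad3. They were chosen by symbol, and all 10 were found among the 22256 distinct gene symbols of the authors' annotated table, each on a single array feature. All 10 also passed the filter on dim genes, which left 15781 genes for testing. Hippocampal RNA from aged mice was measured on 28 whole-transcript arrays in 4 groups of 7. All mice were NSG, a strain without mature lymphocytes that tolerates human material, with a mean age of 14 months. They had received 6 intravenous injections of human umbilical cord plasma, of plasma from young human donors, of plasma from old human donors, or of the vehicle, phosphate-buffered saline (PBS). All groups shared strain and stated age and differed, as far as the labels tell, in what was injected. The labels do not say that each array held the RNA of a separate mouse or how plasma was pooled, so the p-values below measure only the spread between these samples. The comparisons ask whether human plasma, and plasma of different donor age, went with other levels of hippocampal transcripts than PBS did.

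TGF-beta ligands and the activin class, to which GDF11 belongs, are secreted dimers that bring together a type II and a type I receptor, both of them kinases. The type I receptor then phosphorylates SMAD2 and SMAD3, which enter the nucleus with SMAD4 and regulate transcription. Follistatin, the product of Fst, binds activins and related ligands outside the cell and blocks them. GDF11 is also found in blood, and in the brain TGF-beta ligands act on microglia, vessels and neurons.

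None of the 10 genes passed the adjusted threshold of 0.05 in any of the 7 comparisons or in the test over the 4 groups (limma, Benjamini-Hochberg over all genes tested). Acvr1b, which encodes a type I receptor for activins and GDF11, came nearest. Its level was higher in the young plasma group than in the PBS group by 0.20 on the log2 scale, a 1.15-fold difference with a limma adjusted p of 0.1667. Smad3 came next, with differences of 0.12 in the young plasma group and 0.13 in the old plasma group against PBS. Tgfb2 varied most between arrays of 1 group, and its level ran against that of cortex markers and with that of hippocampal pyramidal neuron markers. Values are log2 intensities after RMA (robust multi-array average) normalization, and each difference is the plasma group minus PBS, or the first-named plasma group minus the second.

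**Figure D1:**
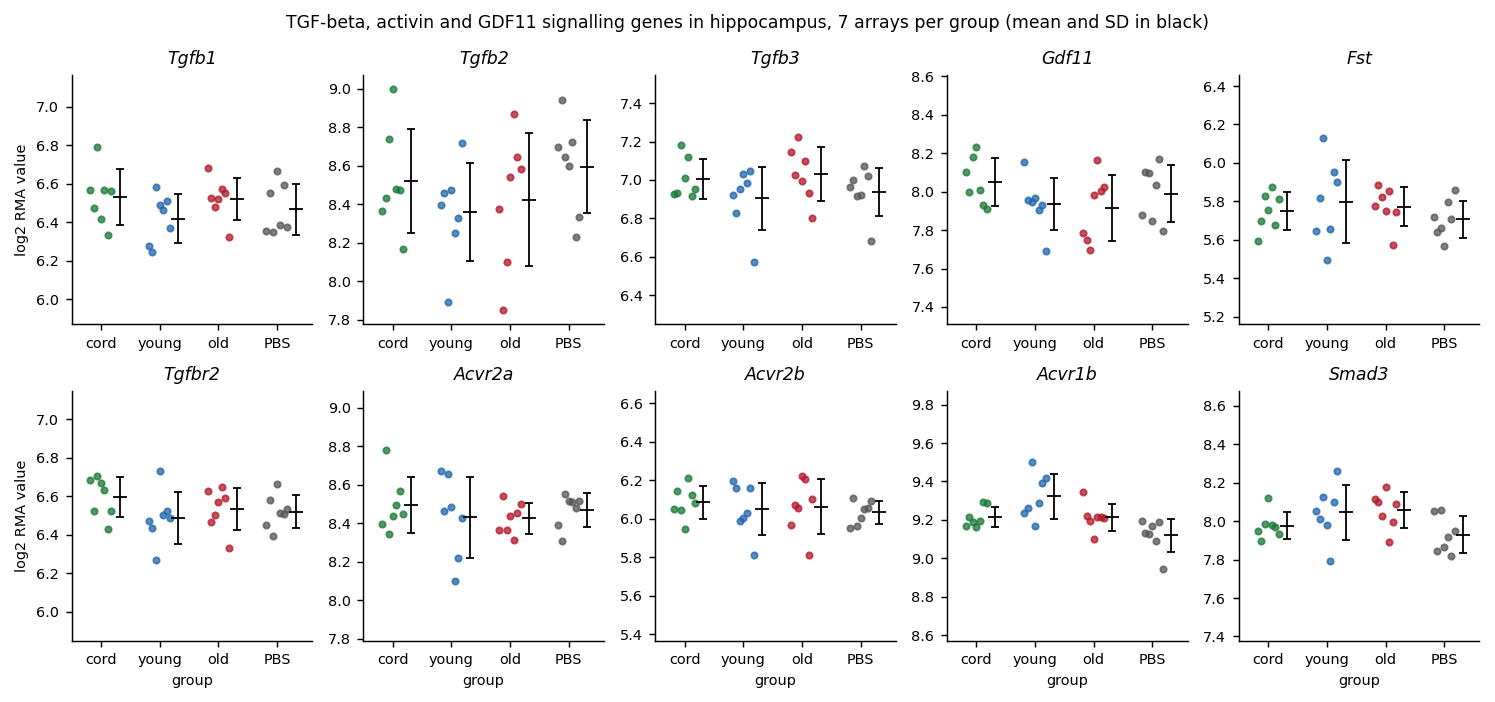
Log2 RMA value of each gene (vertical axis, the same span of units in every panel) in the 7 arrays of the cord plasma, young plasma, old plasma and PBS groups (horizontal axis). Points are arrays, and black bars are the mean and SD. For Acvr1b, 6 of 7 young plasma arrays lie above all PBS arrays, and Tgfb2 has the widest scatter within groups.

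The stretches upstream of Acvr1b and Tgfb2 are shown because the description below turns on these genes: Acvr1b for its difference from PBS, Tgfb2 for its spread between arrays. Each is the 250 bases before the annotated start, 5′ to 3′ on the gene's own strand, from RefSeq on GRCm38.p6. The Acvr1b stretch lies at chr15:101173822-101174071 on the plus strand, and the Tgfb2 stretch at chr1:186705990-186706239 on the minus strand. Capitals mark CAGAC or, on the other strand, GTCTG, the short element that Smad proteins bind.
Acvr1b: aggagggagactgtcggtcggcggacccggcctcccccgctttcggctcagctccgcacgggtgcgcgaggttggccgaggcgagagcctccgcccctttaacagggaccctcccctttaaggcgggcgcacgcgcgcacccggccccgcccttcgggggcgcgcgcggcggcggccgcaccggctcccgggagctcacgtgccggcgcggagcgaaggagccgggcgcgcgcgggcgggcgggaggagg
Tgfb2: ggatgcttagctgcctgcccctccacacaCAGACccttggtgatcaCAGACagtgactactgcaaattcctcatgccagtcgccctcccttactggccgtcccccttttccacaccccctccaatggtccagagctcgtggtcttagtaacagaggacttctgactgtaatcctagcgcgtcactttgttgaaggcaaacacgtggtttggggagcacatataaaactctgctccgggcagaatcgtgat
The Acvr1b stretch has a GC content of 78.8% and holds CAGAC on neither strand. The Tgfb2 stretch has a GC content of 53.6% and holds it at 2 places, whose first bases lie 221 and 204 bases before the start. The median GC content over the 32851 promoters of the table is 52.4%. RefSeq promoters were matched for 8 of the 10 genes. Of these 8, the promoters of Tgfb2, Tgfbr2, Acvr2a and Acvr2b, 4 in all, held CAGAC on either strand, against 42.2% of all promoters. The palindrome GTCTAGAC, which overlaps no full CAGAC, was in 0.167% of all promoters and in 0 of the 8. A match describes letters in a window and says nothing of binding.

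Among the ligands, Tgfb1 encodes the TGF-beta isoform best known from immune and vessel cells. Its lowest, median and highest values were 6.34, 6.56 and 6.79 in cord plasma arrays, 6.25, 6.47 and 6.58 in young plasma arrays, 6.33, 6.53 and 6.68 in old plasma arrays, and 6.35, 6.38 and 6.67 in PBS arrays. The groups overlapped over most of their range, with the highest value in cord plasma replicate 3 and the lowest in young plasma replicate 2. The differences of Tgfb1 from PBS were 0.063 with cord plasma, -0.049 with young plasma and 0.054 with old plasma (SE 0.067 each). Without 1 array, the cord plasma difference ran from 0.019 (without cord plasma replicate 3) to 0.096. The young plasma difference ran from -0.076 to -0.016 (without PBS replicate 4), and the old plasma difference from 0.027 (without old plasma replicate 1) to 0.087. The 95% intervals ran from -0.075 to 0.20 with cord plasma, from -0.19 to 0.089 with young plasma and from -0.084 to 0.19 with old plasma, and each included 0.

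Tgfb2 encodes an isoform found in neurons and glia. Its lowest, median and highest values were 8.17, 8.47 and 9.0 in cord plasma arrays, 7.89, 8.40 and 8.72 in young plasma arrays, 7.85, 8.54 and 8.87 in old plasma arrays, and 8.23, 8.64 and 8.94 in PBS arrays. In each group low and high arrays lay far apart, from old plasma replicate 2 at the bottom to cord plasma replicate 4 at the top, and the groups overlapped throughout their middle. The 28 arrays spanned 2.22-fold, and the SD within groups, 0.28, was at the 97.3rd percentile of all genes tested, whose median SD was 0.13. Tgfb2 differed from PBS by -0.073 with cord plasma, -0.24 with young plasma and -0.17 with old plasma (SE 0.14 each). Single arrays moved these values: the difference was -0.014 with cord plasma without cord plasma replicate 7, and -0.077 with old plasma without old plasma replicate 2. In the fit of all arrays, the interval for young plasma ran from -0.53 to 0.051, and its limma adjusted p was 0.5345. When the mean of the cortex markers was added to the fit as a covariate, the 3 differences turned positive, 0.044 with cord plasma, 0.13 with young plasma and 0.085 with old plasma, with unadjusted limma p-values of 0.53, 0.108 and 0.251 in that order.

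Tgfb3 encodes another isoform of the same ligand. Its lowest, median and highest values were 6.91, 6.95 and 7.18 in cord plasma arrays, 6.57, 6.95 and 7.05 in young plasma arrays, 6.80, 7.03 and 7.22 in old plasma arrays, and 6.68, 6.97 and 7.07 in PBS arrays. The lowest array of the young plasma group and that of the PBS group, both replicate 7, stood below the rest. Its differences from PBS were 0.067 with cord plasma, -0.034 with young plasma and 0.093 with old plasma (SE 0.071 each), and without PBS replicate 7 they were 0.024, -0.076 and 0.051 in the same order.

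Gdf11 encodes the activin-class ligand GDF11. Its lowest, median and highest values were 7.91, 8.01 and 8.23 in cord plasma arrays, 7.69, 7.95 and 8.16 in young plasma arrays, 7.70, 7.98 and 8.16 in old plasma arrays, and 7.79, 8.03 and 8.17 in PBS arrays. The old plasma arrays fell apart into 3 low ones, replicates 1, 2 and 3, all below every PBS array, and 4 that lay among the others. The differences of Gdf11 from PBS were 0.062 with cord plasma, -0.055 with young plasma and -0.075 with old plasma (SE 0.076 each). The difference between cord and old plasma, 0.14, was the widest of the gene, with an interval from -0.018 to 0.29 and a limma adjusted p of 0.9991.

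Fst, the inhibitor, had lowest, median and highest values of 5.59, 5.76 and 5.87 in cord plasma arrays, 5.49, 5.82 and 6.13 in young plasma arrays, 5.58, 5.78 and 5.88 in old plasma arrays, and 5.57, 5.71 and 5.86 in PBS arrays. Its spread was widest with young plasma, where the lowest and the highest of all 28 values lay. The differences from PBS were 0.041 with cord plasma, 0.092 with young plasma and 0.065 with old plasma (SE 0.072 each), all above 0 and all smaller than the SD of Fst within groups, 0.14. Without 1 array, the young plasma difference ran from 0.037 (without young plasma replicate 3) to 0.14. The cord plasma difference ran from 0.018 (without PBS replicate 4) to 0.067.

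Tgfbr2 encodes the type II receptor of the TGF-beta isoforms. Its group means were 6.59 ± 0.10 with cord plasma, 6.49 ± 0.14 with young plasma, 6.53 ± 0.11 with old plasma and 6.52 ± 0.087 with PBS (SD, n = 7 each). The means lay closer together than the arrays of any group, whose values ran from 6.27 in young plasma replicate 3 to 6.73 in young plasma replicate 4. With cord plasma 3 arrays were above every PBS array, and the difference from PBS was 0.075 (interval -0.047 to 0.20). The differences of Tgfbr2 were -0.032 with young plasma and 0.014 with old plasma.

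Acvr2a and Acvr2b encode the type II receptors of activins and GDF11. Acvr2a averaged 8.50 ± 0.14 with cord plasma, 8.43 ± 0.21 with young plasma, 8.43 ± 0.081 with old plasma and 8.47 ± 0.088 with PBS (SD, n = 7 each). Its highest array was cord plasma replicate 2 at 8.78 and its lowest young plasma replicate 5 at 8.10, and young plasma arrays lay both above and below the whole PBS group. Its differences from PBS were 0.028 with cord plasma, -0.036 with young plasma and -0.042 with old plasma (SE 0.073 each). Acvr2b averaged 6.09 ± 0.085 with cord plasma, 6.05 ± 0.14 with young plasma, 6.06 ± 0.14 with old plasma and 6.03 ± 0.060 with PBS (SD, n = 7 each). The arrays of Acvr2b in the PBS group spanned 0.16 and those of the young and old plasma groups 0.39 and 0.41, so that plasma arrays lay on both sides of the PBS range. Its differences from PBS were 0.053 with cord plasma, 0.018 with young plasma and 0.030 with old plasma (SE 0.059 each).

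Acvr1b had lowest, median and highest values of 9.16, 9.19 and 9.29 in cord plasma arrays, 9.17, 9.29 and 9.50 in young plasma arrays, 9.10, 9.21 and 9.34 in old plasma arrays, and 8.94, 9.13 and 9.19 in PBS arrays. PBS replicate 7 was the lowest of all 28 arrays and young plasma replicate 3 the highest. Of the 7 arrays in each plasma group, 4 with cord plasma, 6 with young plasma and 6 with old plasma lay above every PBS array, and the groups still overlapped. The young plasma mean was 9.32 ± 0.12 and the PBS mean 9.12 ± 0.086 (SD, n = 7 each), a difference of 0.20 (SE 0.048, interval 0.10 to 0.30). Its unadjusted limma p of 0.0002218 was the 21st smallest of 15781 genes, and its adjusted p was 0.1667. An exact two-sided permutation test over the 3432 splits of these 14 arrays gave p = 0.001748, where the smallest p that this design can give is 0.0005828.

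The means of Acvr1b with cord plasma, 9.22 ± 0.053, and with old plasma, 9.21 ± 0.070, were nearly equal (SD, n = 7 each), with a difference of 0.0011 and an interval from -0.097 to 0.099. Each lay above PBS by less than young plasma did: the differences from PBS were 0.095 with cord plasma (interval -0.0033 to 0.19) and 0.094 with old plasma (interval -0.0044 to 0.19), with limma adjusted p-values of 0.5826 and 0.495. Young plasma exceeded old plasma by 0.11 (SE 0.048, limma p 0.03056, adjusted p 0.7299), and cord plasma was below young plasma by a difference of -0.11 (limma p 0.03218, adjusted p 0.6769). When each array was centred on its median, these differences of Acvr1b were 0.064 for young against old plasma (limma p 0.2045) and -0.076 for cord against young plasma (limma p 0.1339). The order of the means was therefore young plasma, cord plasma, old plasma and PBS, and no neighbouring pair in it differed after adjustment. Averaged over the 3 plasma groups, Acvr1b was 0.13 above PBS (SE 0.039, limma p 0.002402, adjusted p 0.1881). In the authors' deposited table, the unadjusted p-values of Acvr1b against PBS were 0.02931 with cord plasma, 0.003071 with young plasma and 0.04565 with old plasma. They come from the same arrays, share the PBS group and are not a second measurement. The unadjusted limma p-values with cord and old plasma were 0.05762 and 0.06046. Without PBS replicate 7 the differences of Acvr1b from PBS were 0.065 with cord plasma, 0.17 with young plasma and 0.064 with old plasma.

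Smad3, the receptor-activated transducer, had lowest, median and highest values of 7.90, 7.97 and 8.12 in cord plasma arrays, 7.80, 8.05 and 8.26 in young plasma arrays, 7.89, 8.09 and 8.18 in old plasma arrays, and 7.82, 7.92 and 8.06 in PBS arrays. With old plasma 4 of 7 arrays were above every PBS array. The young plasma group held both the lowest and the highest of the 28 values and the cord plasma group was the narrowest. Smad3 differed from PBS by 0.046 with cord plasma (interval -0.070 to 0.16), by 0.12 with young plasma (interval -0.00024 to 0.23) and by 0.13 with old plasma (interval 0.011 to 0.24). The limma adjusted p-values were 0.8714, 0.4486 and 0.404 in that order, and the exact two-sided permutation p-values were 0.3246, 0.1043 and 0.03205. In bulk tissue a different number of cells of a type and a different RNA level per cell cannot be told apart. This holds for Smad3 and Acvr1b as for every gene here.

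**Figure D2:**
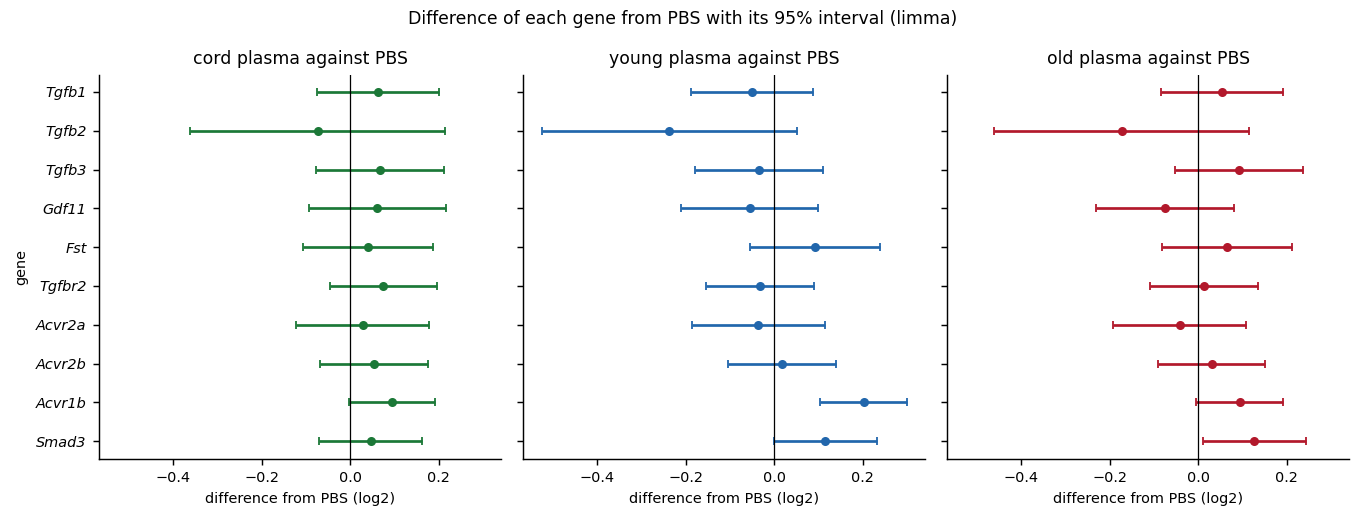
Difference from PBS on the log2 scale (horizontal axis) of each of the 10 genes (vertical axis) with cord, young and old plasma, with points for the limma estimate and bars for its 95% interval. The intervals of Acvr1b with young plasma and of Smad3 with old plasma lie above 0, those of Tgfb2 are the widest, and all others include 0.

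Counted over the 10 genes, 0 passed the adjusted threshold with cord, young or old plasma against PBS, where the share of all genes tested was 0.00% in each. At an unadjusted limma p under 0.05, the count against PBS was 0 with cord plasma (8.74% of all genes), 1 with young plasma, Acvr1b (11.2% of all genes), and 1 with old plasma, Smad3 (10.8% of all genes). These shares, about 1 gene in 10, are near the background. When the 3 plasma groups were averaged and set against PBS, 0 of the 10 passed the adjusted threshold (0.0190% of all genes, 3 genes), and Acvr1b and Smad3, 2 in all, had an unadjusted p under 0.05 (12.4% of all genes). Between plasma groups the adjusted count was 0 of 10 in each pair, where the share of all genes was 0.00% for cord against old plasma, 0.00634% for young against old plasma and 0.00% for cord against young plasma. At the unadjusted level Acvr1b was the 1 gene counted for young against old plasma (6.53% of all genes) and for cord against young plasma (7.22% of all genes), and cord against old plasma had 0 (4.20% of all genes). In the test over the 4 groups 0 of 10 passed the adjusted threshold (0.00634% of all genes), and Acvr1b had an unadjusted p of 0.002732 (1 of 10, against 9.83% of all genes).

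The differences are counted by sign as follows. With cord plasma, the genes above PBS were 9 of 10, all but Tgfb2, against 53.3% of all genes, and the median difference of the 10 was 0.057 against 0.0061 over all genes. With young plasma 4 of 10 were above PBS, Fst, Acvr2b, Acvr1b and Smad3, against 49.2% of all genes, with a median of -0.033 against -0.0018. With old plasma 7 of 10 were above PBS (6 after renewed quantile normalization, where Tgfbr2 turned), all but Tgfb2, Gdf11 and Acvr2a, against 52.5% of all genes, with a median of 0.042 against 0.0050. When each array was centred on its median the count with old plasma was again 7 of 10, but 70.2% of all genes were then above PBS, and with cord plasma 65.4% were. The 3 comparisons share their PBS arrays, and most of these differences were smaller than the spread within groups. No gene of the 10 had all arrays of a plasma group beyond all PBS arrays, where 0.196% of all genes did with cord plasma, 0.215% with young plasma and 0.323% with old plasma.

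The other genes of the pathways gave 70 tested genes in 6 lists: ligands, receptors and co-receptors, Smads and their partners, extracellular binders and activators, TGF-beta responsive genes, and the bone morphogenetic protein (BMP) arm. None of the 70 passed the adjusted threshold in any of the 7 comparisons (limma, the same fit). At an unadjusted p under 0.05 there were 3 of 70 with cord plasma against PBS (4.29%), 7 with young plasma (10%) and 4 with old plasma (5.71%), against 8.74%, 11.2% and 10.8% of all genes in that order. Of the 8 ligands tested, the 1 with an unadjusted p under 0.05 was lower than PBS in each comparison: Gdf15 with cord and with old plasma, and Gdf10 with young plasma, 1 of 8 each time against 8.74%, 10.8% and 11.2% of all genes. Of the 7 receptors and co-receptors, 0 had an unadjusted p under 0.05 in any plasma comparison with PBS. Tgfbr1, the type I partner of Tgfbr2, differed from PBS by 0.049 with cord plasma, -0.043 with young plasma and 0.026 with old plasma (SE 0.090 each). The type I receptor gene Acvr1 differed by 0.072 with cord plasma, 0.015 with young plasma and -0.032 with old plasma. Acvr1c, another type I receptor of the activin class, differed by 0.099 with cord plasma, 0.040 with young plasma and 0.097 with old plasma (SE 0.071 each). The activin subunit gene Inhba differed by 0.092 with cord plasma, -0.054 with young plasma and 0.045 with old plasma (SE 0.10 each). Inhbb, the other activin subunit gene, differed by -0.027 with cord plasma, -0.0040 with young plasma and -0.0049 with old plasma, and Mstn, the ligand closest to Gdf11, was under the filter on dim genes.

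Of the 11 genes for Smads and their partners, 0 had an unadjusted p under 0.05 with cord or young plasma against PBS and 1, Smurf1, with old plasma, against 10.8% of all genes. Smad2, the sister transducer of Smad3, differed from PBS by 0.069 with cord plasma, 0.050 with young plasma and 0.012 with old plasma (SE 0.046 each). The common partner Smad4 differed by -0.011 with cord plasma, 0.033 with young plasma and -0.037 with old plasma (SE 0.037 each). The inhibitory Smad7, itself a target of the pathway, was above PBS by 0.15 with cord plasma, 0.14 with young plasma and 0.13 with old plasma (SE 0.074 each). Its mean over the 3 plasma groups was 0.14 above PBS, with a limma p of 0.02799 and an adjusted p of 0.3432. In that comparison 6 of the 70 pathway genes (8.57%) had an unadjusted p under 0.05, against 12.4% of all genes. The repressor gene Skil, another target, differed by 0.094 with cord plasma, 0.10 with young plasma and -0.048 with old plasma.

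Among 17 extracellular binders and activators, 2 were above PBS at an unadjusted p under 0.05 with cord plasma, 3 with young plasma and 0 with old plasma, where 8.74%, 11.2% and 10.8% of all genes had such a p in either direction. The follistatin relative Fstl3 was 1 of the 3: it differed from PBS by 0.18 with young plasma (SE 0.058, limma p 0.004689, adjusted p 0.2907), against 0.033 with cord plasma and 0.078 with old plasma. Fstl1, another relative, differed by -0.039 with cord plasma, -0.049 with young plasma and -0.015 with old plasma. The pseudoreceptor gene Bambi was above PBS by 0.11 with cord plasma, 0.11 with young plasma and 0.090 with old plasma (SE 0.061 each). Ltbp1, which stores latent TGF-beta in the matrix, differed by 0.12 with cord plasma, 0.040 with young plasma and 0.13 with old plasma (SE 0.071 each). Of 16 responsive genes 0 had an unadjusted p under 0.05 with cord plasma, 1, Ctgf, was above PBS with young plasma (11.2% of all genes) and 0 with old plasma. The median differences of the 16 were 0.018, 0.076 and -0.046 in that order, against 0.0061, -0.0018 and 0.0050 over all genes. Whether these medians differ from those of all genes was not tested. Of 16 genes of the BMP arm, 0 were counted with cord plasma, 2 with young plasma (11.2% of all genes), Id2 and Smad1, both above PBS, and 2 with old plasma (10.8% of all genes), Smad1 above and Nog below PBS. Genes named only in these counts (Gdf10, Gdf15, Smurf1, Ctgf, Id2, Smad1 and Nog) were named after their values were seen.

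**Figure D3:**
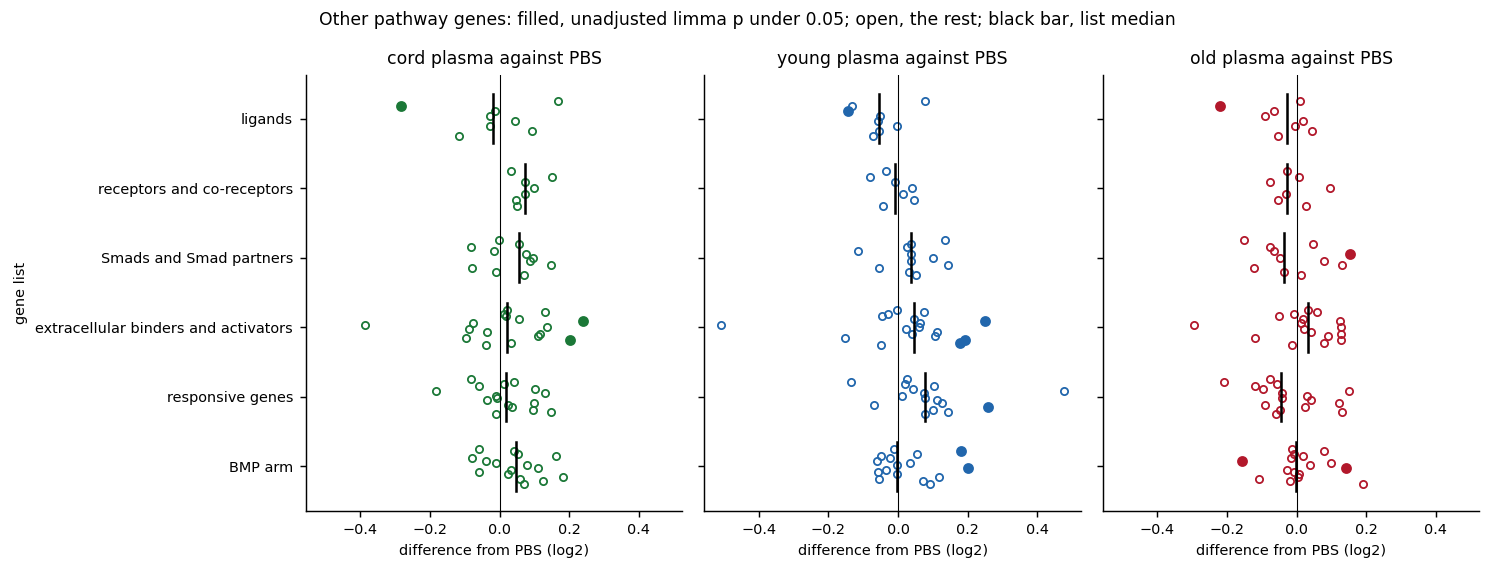
Difference from PBS on the log2 scale (horizontal axis) of every tested gene of the 6 pathway lists (vertical axis) with cord, young and old plasma. Filled circles have an unadjusted limma p under 0.05, open circles do not, and black bars are list medians. The filled circles number 3 genes with cord plasma, 7 with young plasma and 4 with old plasma.

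Markers of the labelled tissue were present: 9 of 9 markers of hippocampal pyramidal neurons and 8 of 9 of dentate granule neurons passed the filter. Markers of neighbouring tissue passed as well, 8 of 8 for cortex and 10 of 10 for choroid plexus, and their level varied between arrays. The mean log2 value of the cortex markers ranged from 7.19 to 8.03 in cord plasma arrays, from 7.44 to 8.17 in young plasma arrays, from 7.28 to 8.06 in old plasma arrays and from 7.31 to 7.67 in PBS arrays. The group means were 7.55, 7.79, 7.68 and 7.44 in that order, so that the young plasma group had the highest and the PBS group the lowest. The choroid plexus means fell into separate clusters, 15 arrays between 5.46 and 6.12 and 13 between 7.14 and 8.27, and each of the 4 groups held arrays of both. Young plasma replicate 7 had a low microglial mean (7.09), and PBS replicate 6 a high thalamic one (7.74). Correlations between pairs of the 28 arrays over all genes ran from 0.9755 to 0.9954.

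Correlations of the 10 genes with the mean of each of 10 marker lists were taken over the 28 arrays after removal of the group means, 100 in all, with permutation p-values within groups. The choroid plexus list was left out because its means fell into separate clusters. Its r with Tgfb2 within groups was 0.55 with cord plasma, 0.72 with young plasma, 0.58 with old plasma and 0.31 with PBS (7 arrays each). Every group held arrays of both clusters, so these values carry the same limit and were not tested. Of the 100, 7 had a Benjamini-Hochberg adjusted p under 0.05. Tgfb2 ran against the cortex markers with r = -0.89 and rho = -0.90 (permutation p = 1e-05, the smallest that 100000 permutations can give; adjusted p 0.0005). Within groups r was -0.88 with cord plasma, -0.88 with young plasma, -0.95 with old plasma and -0.90 with PBS, and without the 2 arrays farthest from the median it was -0.88. Of the 8 cortex markers, 7 had negative correlations with Tgfb2, among them Tbr1, a transcription factor of cortical projection neurons, at -0.88 and Rspo1 at -0.63, and Fezf2 stood at 0.048. Tgfb2 ran with the pyramidal neuron markers at r = 0.82 and rho = 0.82 (permutation p = 1e-05, adjusted p 0.0005; 0.84 without the 2 farthest arrays), and 8 of the 9 markers had positive values. Among these, Grik4, a kainate receptor subunit of hippocampal neurons, had the highest r, 0.83. Wfs1 was the marker with a negative value, -0.10. The correlation of Tgfb2 with the dentate granule neuron markers was 0.60 (rho 0.63, permutation p 0.00178, adjusted p 0.0317).

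**Figure D4:**
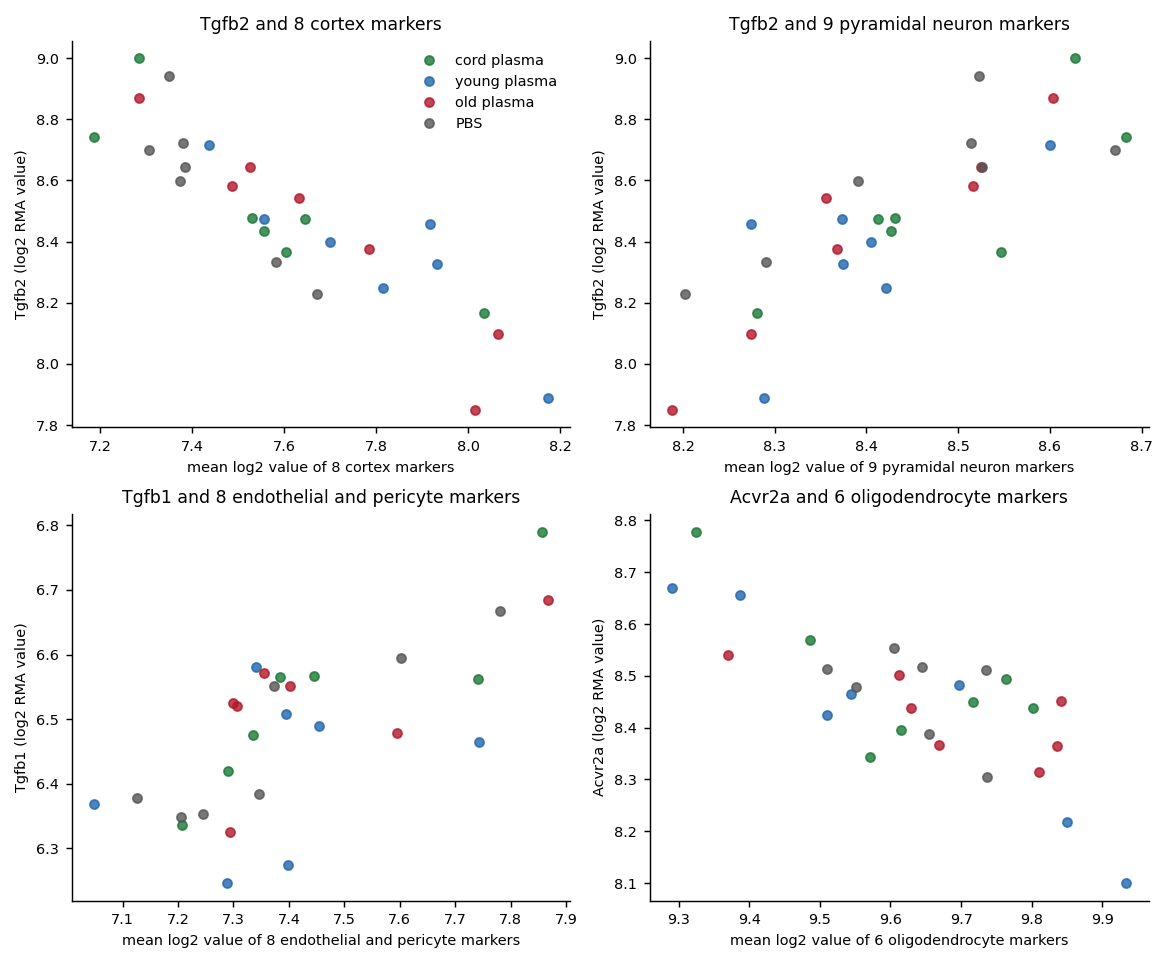
Log2 RMA values of Tgfb2, Tgfb1 and Acvr2a (vertical axes) against the mean log2 value of a marker list (horizontal axes) in the 28 arrays, coloured by group (cord, young and old plasma, and PBS). Tgfb2 runs against the cortex markers and with the pyramidal neuron markers in all groups, Tgfb1 with the endothelial and pericyte markers, and Acvr2a against the oligodendrocyte markers.

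Tgfb1 ran with the 8 markers of endothelial cells and pericytes (r = 0.70, rho = 0.71, permutation p 0.00014, adjusted p 0.0035). The correlation was 0.62 without the 2 farthest arrays, and single markers ranged from 0.16 for the pericyte gene Pdgfrb to 0.74 for the tight junction gene Cldn5. Within the young plasma group it was 0.30. Tgfb3 ran with the same markers (r = 0.59, rho = 0.67, permutation p 0.00224, adjusted p 0.032), at 0.65 without the 2 farthest arrays. Acvr2a ran against the 6 oligodendrocyte markers (r = -0.79, rho = -0.71, permutation p 5e-05, adjusted p 0.00167), with r between -0.79 and -0.60 for each of the 6, and at -0.75 without the 2 farthest arrays. Smad3 ran against the blood myeloid list (r = -0.58, rho = -0.57, permutation p 0.0019, adjusted p 0.0317), of which 2 of 7 markers passed the filter. The adjusted p of its rho was 0.062. Acvr1b had no correlation past the threshold. Its strongest was with the meningeal fibroblast markers (r = -0.48, rho = -0.54, permutation p 0.0101, adjusted p 0.112), and its r with the cortex markers was 0.27. With the cortex markers as a covariate the Acvr1b difference between young plasma and PBS was 0.17. With any of the 7 marker lists used as a covariate, 0 of the 10 genes passed the adjusted threshold in any comparison (limma), and Tgfb2, Gdf11, Tgfbr2 and Acvr2b had differences from PBS that changed sign with the cortex markers.

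**Figure D5:**
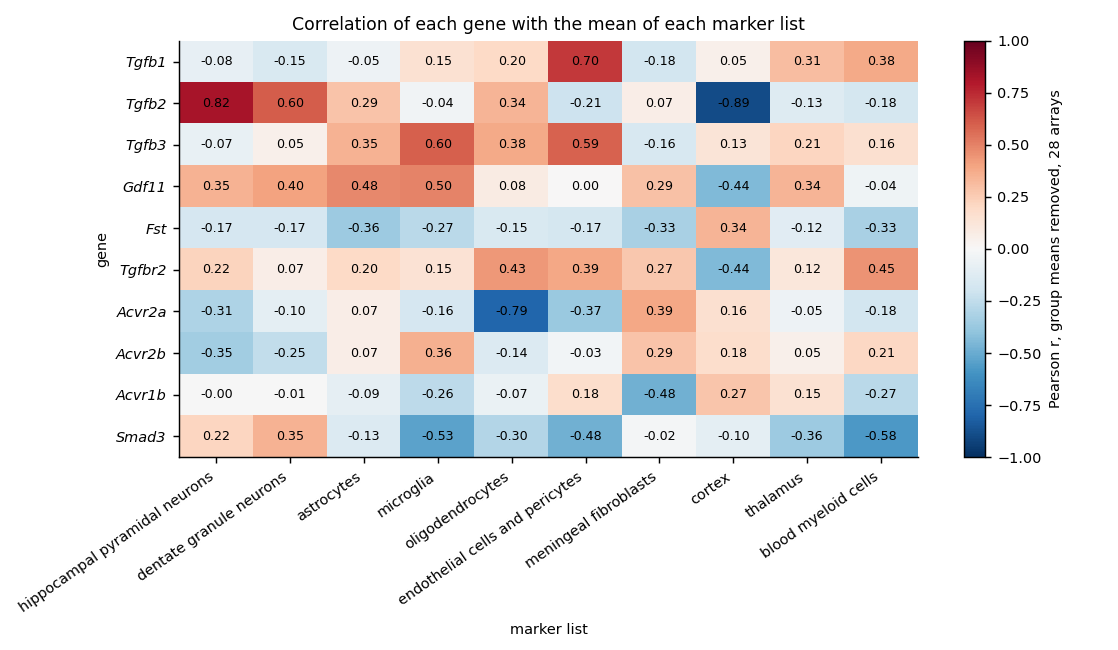
Pearson correlation (colour and printed value) of each of the 10 genes (vertical axis) with the mean of each of 10 marker lists (horizontal axis) over 28 arrays, after removal of group means. The extremes are Tgfb2 with cortex, -0.89, and with hippocampal pyramidal neurons, 0.82.

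Between the 10 genes themselves, 45 pairs were examined in the same way, and 0 had an adjusted p under 0.05. The nearest was the ligand and receptor pair Tgfb1 and Tgfbr2 (r = 0.51, permutation p 0.00763, adjusted p 0.206). The sign of r was positive in 22 of the 45. The genes whose deviations from the group means were most like those of a member over the 28 arrays were, for Tgfb2, 4933426M11Rik (r = 0.94), Cachd1 (0.93) and Gabra5 (0.92). For Tgfb1 they were Acvrl1 (0.77), Ptrf (0.75) and Cldn5 (0.74), of which Acvrl1 is a type I receptor of endothelial cells. The closest gene to Tgfb3 was Hip1 (0.77), to Gdf11 Prkag2 (0.73), and to Fst Dusp14 (0.75). For the receptors the closest were Flna to Tgfbr2 (0.80), Adcyap1r1 to Acvr2a (0.77), Kif2a to Acvr2b (0.73) and Pde7b to Acvr1b (0.74), and for Smad3 it was Lemd2 (0.70). These were picked as the highest correlations among all genes tested and are given as a description.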

How the data were processed

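Hippocampal RNA was hybridised to Affymetrix whole-transcript arrays after biotin labelling, per the labels' protocols. The deposited value table, with 41345 array features, holds log2 intensities, for which the submitters' processing notes name RMA. The RMA version and the genome build were not given in the sources used here. A second table deposited by the authors holds, per the file headers, log2 group means with unadjusted p-values of every plasma group against PBS and of all 4 together. Its means equalled those of the value table within 8.57e-09. Array medians ran from 4.96 to 5.09, and the number of arrays, 28, limits the precision. Groups were taken from the sample titles.

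Symbols came from the authors' table. Features with a mean under the 30th percentile of named ones (4.68) were left out, and a gene was represented by its feature with the highest mean. Each of 15781 genes was fitted with 1 mean per group and eBayes (limma 3.58.1, R 4.3.3), with Benjamini-Hochberg adjustment over all of them, a threshold of 0.05 and 95% intervals. Single genes were also compared with exact two-sided permutation tests. Correlations used 100000 permutations within groups in numpy 2.4.6. In simulated data for young plasma against PBS, 50 of 15781 genes were changed per size. The fit called 62% of changes of 0.25 and 96% of changes of 0.5, with 6 false calls among 185. The real comparison had 0 calls, and the adjustment is stricter where fewer genes are changed. These shares therefore do not tell how often a real change of that size would be called. All 10 members are named, and of the other pathway genes a list of 15 (1 of them not reported here), with others where a count is small. The members and lists were chosen with earlier results of these data known. Same-numbered arrays of different groups had a mean correlation of 0.048, against -0.0081 for arrays of other numbers, and the main fit used no block. Whether the numbers mark a shared step of handling was not tested. Alternatives covered the filter, the normalization, the variance model, array weights, the groups fitted, the replicate block, marker covariates (5 of them added after seeing the data) and the omission of each array.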

Additional observations from a re-analysis of the deposited data

Results flagged for a closer look

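In 3 of the 40 combinations of gene and group, 1 array lay far from the other 6 by Dixon's criterion, which chance meets in about 1 of 20 groups. Acvr1b was lowest in PBS replicate 7, at 8.94 on the log2 scale, where the next PBS array had 9.09 and the highest 9.19, a gap of 0.584 of the range. Tgfb3 was lowest in the same array, at 6.68, where the next had 6.92 and the highest 7.07, a gap of 0.595 of the range. Smad3 was highest in cord plasma replicate 4, at 8.12, where the next had 7.98 and the lowest 7.90, a gap of 0.606 of the range.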

How the results depend on the processing

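Of the 10 genes, 0 passed the adjusted threshold in any of the 7 comparisons or in the test over the 4 groups. This held under all 360 combinations of count and alternative. The exact permutation test has a smallest p of 0.0005828, reached only where the groups do not overlap. Against PBS that held for 0.196% of all genes with cord, 0.215% with young and 0.323% with old plasma. These are too few for that p alone to pass the adjustment, so the 0 of this test counts for little. Fst had a value in 45 alternatives per plasma against PBS and the other genes in 46, so not every count covered Fst. Among the 43 single differences followed through the alternatives (each gene against PBS and, between plasma groups, Acvr1b), the lowest adjusted p was 0.0999, for Acvr1b with young plasma against PBS without young plasma replicate 1. Over the 46 alternatives of that difference (limma fits, permutation test and authors' p-values), the highest adjusted p was 0.4391. Without 1 array, the difference of Acvr1b with young plasma ran from 0.173 (without PBS replicate 7) to 0.229. Same-numbered arrays had correlations from -0.189 to 0.414 over 42 pairs, 12 of them over 0.1, and 2 of 28 arrays correlated best with their own number. The main fit did not pair arrays by number, but these values over all genes do not settle pairing for single genes. Gdf11 was lowest in replicate 7 of the cord plasma, young plasma and PBS groups, and in replicate 3 with old plasma. Tgfb3 was lowest in replicate 7 of the young plasma, old plasma and PBS groups, and in replicate 6 with cord plasma. Replicate 4 had the highest choroid plexus mean in each plasma group. The permutations within groups treated arrays of different numbers as exchangeable. The replicate block changed no count, which stayed at 0, and Acvr1b with young plasma had a limma adjusted p of 0.2335 under it. Over all genes, centring arrays on their medians changed the share of higher values among genes with an unadjusted p under 0.05 to 81.3% with cord plasma (56.7% as deposited) and to 89.0% with old plasma (61.5%). It called 104 genes with old plasma, against 0 as deposited, and 18 for the mean of the plasma groups, against 3. Under centring, 9 of the 10 genes were above PBS with cord plasma (65.4% of all genes), 4 with young plasma (45.7%) and 7 with old plasma (70.2%).

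Of the 43 differences, 16 changed sign under some alternative. With cortex markers as a covariate, Tgfb2 turned to 0.0435 with cord plasma, 0.128 with young plasma, 0.0848 with old plasma and 0.0855 for the mean of the plasma groups. Under the same covariate Gdf11 turned to 0.0385 with young plasma and 0.0402 for the mean, Tgfbr2 to 0.0392 and Acvr2b to -0.011 with young plasma. With thalamus markers the mean difference of Gdf11 was 0.0179, with renewed quantile normalization Tgfbr2 with old plasma was -0.00594, and with array weights Tgfb3 with young plasma was 0.00931. The mean difference of Acvr2a was 0.00152 when centred and 0.00223 with meningeal markers. Acvr1b between cord and old plasma was -0.0121 when centred, -0.00375 with choroid plexus, -0.000231 with thalamus, -0.000224 with endothelial and -0.00115 with oligodendrocyte markers. Without 1 array, Acvr2a ran from -0.0188 to 0.0539 with cord plasma and from -0.0757 to 0.0192 with young plasma, and Tgfb3 from -0.0763 to 0.0216 with young plasma. Tgfbr2 ran from -0.0722 to 0.0045 with young and from -0.0074 to 0.0476 with old plasma, Acvr2b from -0.0068 to 0.0578 with young plasma, and Acvr1b between cord and old plasma from -0.0175 to 0.0227. The mean of the plasma groups ran from -0.000512 to 0.0642 for Tgfb3, -0.0554 to 0.0078 for Gdf11, -0.0022 to 0.0426 for Tgfbr2 and -0.0433 to 0.0020 for Acvr2a. The cause of these changes was not tested. The exact permutation test was run between 2 groups at a time, and the authors' p-values exist for each plasma against PBS and for the 4 groups. Signal over background is not given in these tables, so what it limits could not be set per gene.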
